A study of Homo sapiens with 6 samples.

Results

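The guanylate-binding proteins GBP1, GBP2, GBP3, GBP4 and GBP5 were followed in the pancreatic cancer cell line Capan-1 when GNE, the gene for the first enzyme of sialic acid synthesis, had been silenced with siRNA. Every probe set that the platform annotation gives to one of these 5 genes and to no other gene was taken, which gave 11 of the 54675 probe sets on the array, for 5 of the 19775 genes that the annotation names by a probe set of their own. The genes had been chosen because of their difference between siGNE and control arrays in these same data, so that difference is given below as a description and carries no test. The 2 groups were cells transfected with siRNA against GNE (siGNE, 3 arrays) and cells transfected with the allStar control (control, 3 arrays). All cells were grown in RPMI with fetal calf serum, received siRNA 2 times 48 h apart, and were collected 72 h later. The titles number the arrays 1 to 3 in each group, and an siGNE array is set beside the control array of its number below. The labels do not tell whether the 3 arrays of a group stand for separate cultures, so their spread may be technical, and the silencing was transient and in 1 cell line.

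Guanylate-binding proteins are large GTPases of the dynamin superfamily that interferon gamma induces strongly in most cell types. Interferon gamma acts through a receptor, its Janus kinases and transcription factors that bind the GAS and ISRE elements of promoters, and IRF1 is a factor that reads the ISRE. The proteins assemble on membranes and on the surface of bacteria in the cytosol, and several carry a lipid anchor added by prenylation. In epithelial and endothelial cells GBP1 is known as a marker of exposure to inflammatory cytokines.

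The promoters are shown first because GBP1 and GBP3 share a stretch of promoter sequence. Transcripts of both were lower after GNE silencing, but so was that of GBP2, which has no promoter window here. A link between promoter sequence and the differences was not tested. The RefSeq promoter table of build GRCh38.p14 holds windows of 250 bases before to 50 bases after the gene start for GBP1, GBP3 and GBP4 among the 5 genes. Each of these 3 windows held the ISRE core once, on the strand opposite to the gene, read here as GAAA, any 2 bases and GAAA again. Of all 35116 promoter windows, searched on both strands, 3.57% held it. The windows of GBP6 and GBP7, which are not among the 5 genes, held 0 matches. The lines below give 30 bases around each match on the gene's own strand, 5′ to 3′, with the match in capitals, at chr1:89065316-89065345 for GBP1, chr1:89022845-89022874 for GBP3 and chr1:89198927-89198956 for GBP4, all on the minus strand.
GBP1: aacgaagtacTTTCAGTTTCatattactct
GBP3: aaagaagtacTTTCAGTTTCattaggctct
GBP4: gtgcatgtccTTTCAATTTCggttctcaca

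The match lay at positions -127 to -118 of GBP1, 3 to 12 of GBP3 and -4 to 6 of GBP4, counted from the first transcribed base as 1 with no position 0. Of the 30 bases, 25 were the same in GBP1 and GBP3, with a shared run of 19, while GBP4 shared 16 with each of them. The likeness of GBP1 and GBP3 went on before the match. The 60 bases just before it, at chr1:89065336-89065395 for GBP1 and chr1:89022865-89022924 for GBP3 on the minus strand, aligned with no gap at 44 positions, or 73.3%. They are shown here with the GAS core TTCNNNGAA in capitals where it occurs.
GBP1: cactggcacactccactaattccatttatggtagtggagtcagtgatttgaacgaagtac
GBP3: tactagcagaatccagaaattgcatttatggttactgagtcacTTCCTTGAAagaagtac

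The GAS core, which reads the same on both strands, matched once in GBP3, at -15 to -7, against 7.66% of all windows. It matched in none of the GBP1, GBP4, GBP6 and GBP7 windows. The 2 motifs did not overlap in GBP3. These matches are letters in a window of 300 bases and were not tested as binding sites. An element with other letters would not be found, so a window without a match is not shown to lack one.

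The arrays themselves were alike in scale. The deposited values are log2 expression values, with 40.3% to 40.6% of probe sets above 4 on each array. Values near the array medians, 2.96 to 3.02, are close to background, so a probe set with a mean over all arrays at or under 4 is marked here as near background. GNE was 8.39, 9.86 and 9.57 in siGNE arrays 1, 2 and 3, against 11.12, 11.47 and 10.86 in the control arrays of the same numbers. That left 15.0%, 32.8% and 40.9% of the control level, and the mean log2 difference was -1.88 with a limma adjusted p of 0.131, or 0.0348 with the array number as a replicate block (exact two-sided permutation p = 0.1, the smallest that 3 against 3 arrays allow). All 8 ductal epithelial markers were above 4, as were 0 of 5 endothelial markers, 1 of 6 leukocyte markers (LYZ, also a secretory product of epithelia) and 1 of 6 fibroblast markers (COL1A1). The log2 of the summed leukocyte markers ran from 10.70 to 11.45 in siGNE arrays, against 10.20 to 11.61 in control arrays, and that of the fibroblast markers from 8.33 to 9.30 in siGNE arrays, against 7.72 to 8.90 in control arrays, so the groups overlapped in both.

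GBP1, GBP2 and GBP3 transcripts were present in these cells and were lower on the siGNE array than on the control array of every number, while GBP4 and GBP5 read at background in both groups. GBP1 stood at 35.0% of its control level by its brightest probe set, GBP2 at 48.7% and GBP3 at 48.4%. Of the 11 probe sets 6 were above 4 and 5 were near background, and the 6 cover GBP1, GBP2 and GBP3 alone. A lower signal in extracted RNA cannot tell fewer expressing cells apart from less RNA per cell.

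**Figure D1:**
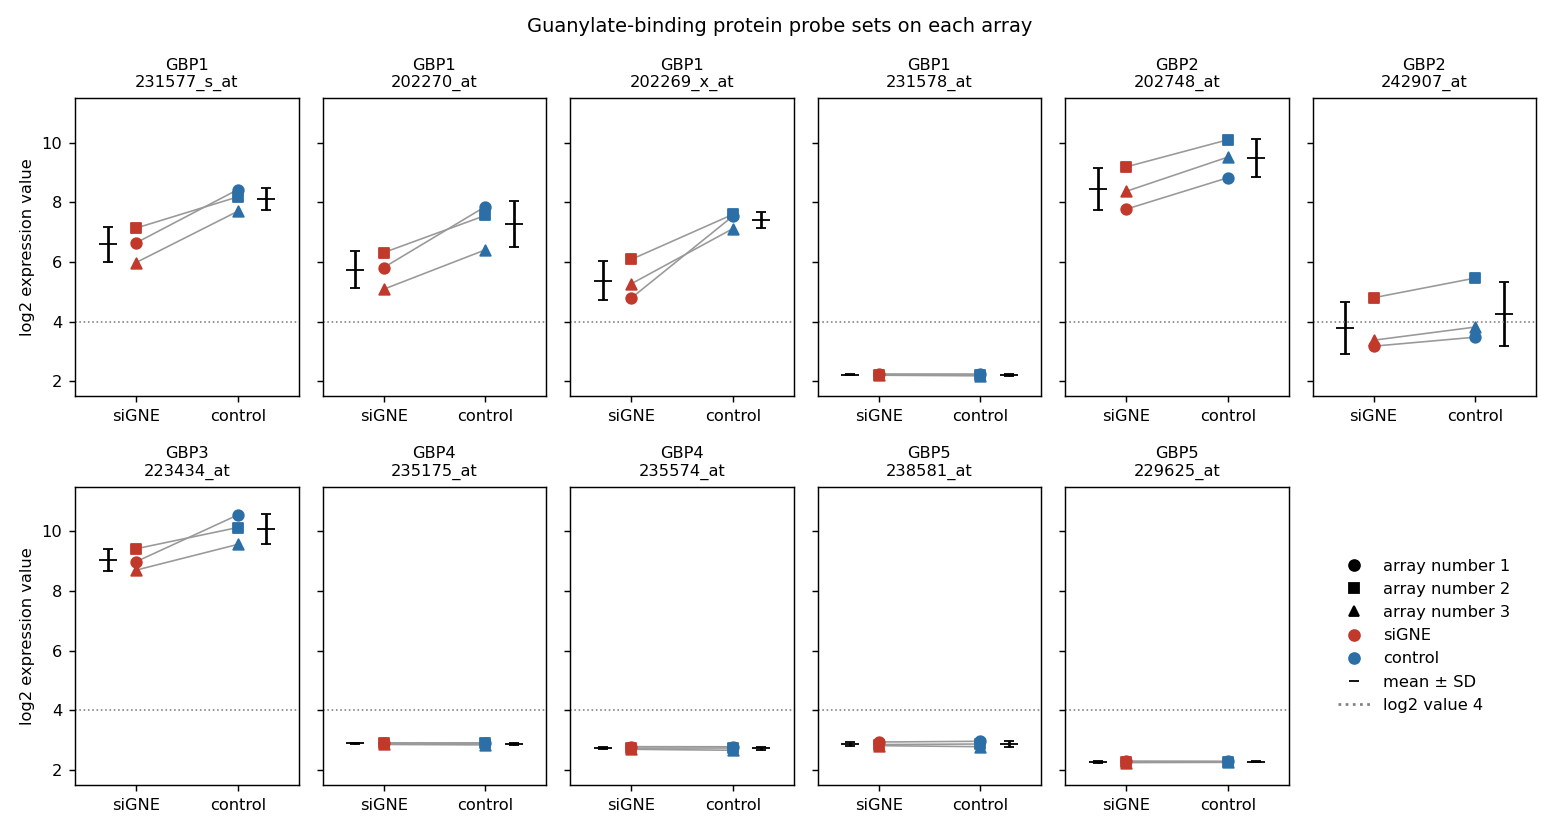
Log2 expression value (vertical axis) of the 11 probe sets of GBP1 to GBP5 on each array, siGNE at the left and control at the right, with arrays of the same number joined by a line, the mean and SD of 3 arrays beside the points and a dotted line at 4. The lines of the 6 brighter probe sets all lead to a higher control value, and 3 of the GBP1 panels and the GBP3 panel have siGNE points entirely below the control points, while GBP4 and GBP5 lie flat between 2.25 and 2.96.

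GBP1, a GTPase that forms polymers on lipopolysaccharide-bearing bacteria and helps recruit caspase-4, had 4 probe sets. The brightest of them, 231577_s_at, read 6.64, 7.14 and 5.98 in siGNE arrays 1, 2 and 3, against 8.43, 8.18 and 7.70 in control arrays 1, 2 and 3. The groups did not overlap, and the highest siGNE value lay 0.56 below the lowest control value. The means were 6.59 ± 0.58 in siGNE cells and 8.10 ± 0.37 in control cells (SD, n = 3 arrays each), a log2 difference of -1.52. By number, the siGNE arrays held 29.0%, 48.4% and 30.4% of their control, so array 2 lost least.

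A second GBP1 probe set, 202270_at, gave nearly the same mean difference with a wider spread. It read 5.81, 6.31 and 5.09 in siGNE arrays, against 7.86, 7.56 and 6.41 in control arrays. Here the groups only just parted, by 0.09, because control array 3 was low. The means were 5.74 ± 0.62 in siGNE cells and 7.27 ± 0.77 in control cells (SD, n = 3 arrays each), a log2 difference of -1.54.

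The probe set 202269_x_at showed the largest difference of the 11, but its suffix marks probes that may bind other transcripts, and near relatives of GBP1 such as GBP3 could contribute to it. It read 4.78, 6.08 and 5.26 in siGNE arrays, against 7.53, 7.59 and 7.12 in control arrays. The gap between the groups was 1.03, the widest among the members. The log2 difference was -2.04, which is 24.4% of control, and array 1 stood at 14.9%. Across the 3 brighter GBP1 probe sets and the 3 array numbers, the siGNE level ran from 14.9% to 48.4% of control.

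The other GBP1 probe set, 231578_at, carried no usable signal. Its 6 values lay within 0.06 of each other around a mean of 2.22, with a difference of 0.01. It was annotated from the same accession as the brightest one, so probe sets of one gene disagreed here between a clear difference and none, with this one at background in both groups.

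GBP2, a prenylated member known in human cells for restricting the protease furin and with it viral envelope maturation, had 2 probe sets. The brighter one, 202748_at, read 7.77, 9.19 and 8.37 in siGNE arrays 1, 2 and 3, against 8.82, 10.10 and 9.51 in control arrays 1, 2 and 3. The groups overlapped, since siGNE array 2 was above control array 1. Within each number the siGNE value was lower, by 1.05, 0.91 and 1.15 on the log2 scale, and the SD of these 3 differences was 0.12. The means were 8.44 ± 0.71 in siGNE cells and 9.48 ± 0.64 in control cells (SD, n = 3 arrays each), a log2 difference of -1.04. GBP2 therefore varied more between array numbers than between groups. Array 2 was above array 1 by 1.42 among siGNE arrays and by 1.27 among control arrays.

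The second GBP2 probe set, 242907_at, had the same order of arrays at the edge of background. It read 3.18, 4.80 and 3.38 in siGNE arrays, against 3.48, 5.46 and 3.82 in control arrays. Array 2 was the only one above 4 in either group, and the group means were 3.79 in siGNE cells, near background, and 4.25 in control cells. The log2 difference was -0.47, and within numbers 1, 2 and 3 it was -0.30, -0.66 and -0.44. Its sign turned when control array 2 alone was left out, which gave 0.14. With both arrays of a number left out it ran from -0.55 to -0.37. This probe set passed the limit of 4 by 0.02, and the nearest member on the other side of that limit was the GBP4 probe set with a mean of 2.89.

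GBP3, the closest relative of GBP1, had 1 probe set, 223434_at. It read 8.98, 9.42 and 8.70 in siGNE arrays 1, 2 and 3, against 10.55, 10.13 and 9.56 in control arrays 1, 2 and 3. The groups did not overlap, with a gap of 0.15 between siGNE array 2 and control array 3. The means were 9.03 ± 0.36 in siGNE cells and 10.08 ± 0.49 in control cells (SD, n = 3 arrays each), a log2 difference of -1.05. The loss was uneven between numbers, with 33.8% of control left in array 1, 61.0% in array 2 and 55.0% in array 3. Array 1 was also the number with the least GNE left, but array 3, with the most GNE left, kept less GBP3 than array 2. A link between the 2 was not tested.

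GBP4, and GBP5, known in macrophages for promoting inflammasome activity, were near background on all arrays. The GBP4 probe set 235175_at read 2.91, 2.90 and 2.86 in siGNE arrays, against 2.91, 2.90 and 2.84 in control arrays. The GBP5 probe set 238581_at read 2.94, 2.85 and 2.82 in siGNE arrays, against 2.96, 2.87 and 2.78 in control arrays. Over the 5 near-background probe sets of GBP1, GBP4 and GBP5 the differences lay between -0.003 and 0.01. In all 5 the number 3 array was the lowest of its group, a shift of at most 0.18 over the 6 arrays. At this signal a difference would not have been detectable, so these values say nothing of whether GBP4 or GBP5 changed.

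**Figure D2:**
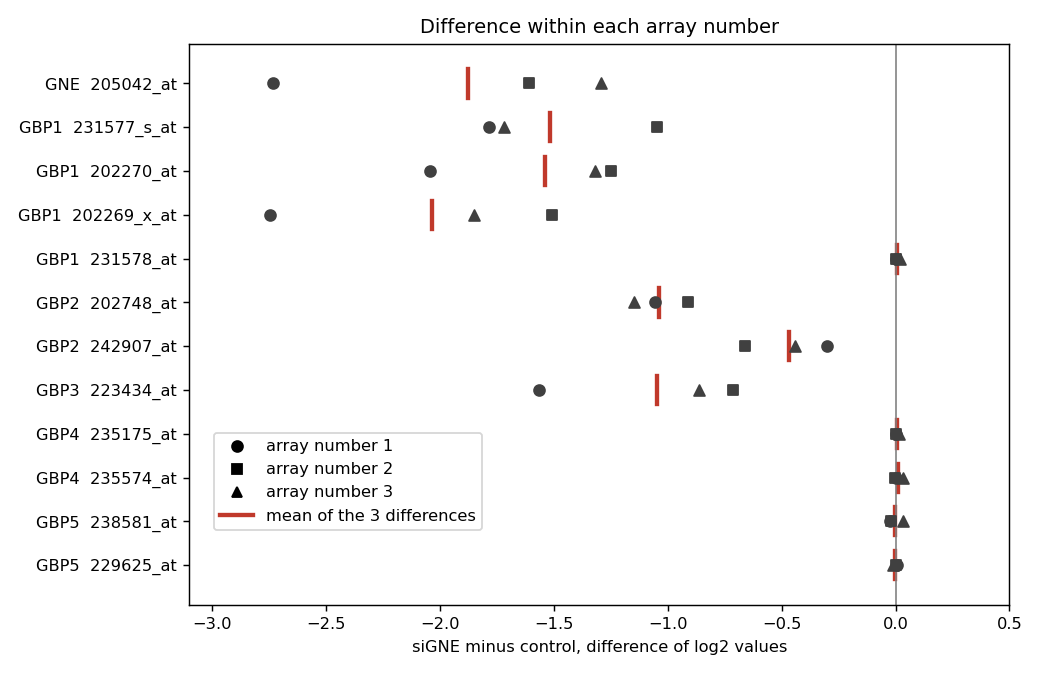
Difference of log2 values, siGNE minus control (horizontal axis), within each array number for GNE and the 11 GBP probe sets, with a red bar at the mean of the 3 differences. GBP2 202748_at has the tightest points of the brighter probe sets with means beyond -1, and array 3 lies farthest left in it. Array 1 lies farthest left for GNE, GBP3 and 3 GBP1 probe sets, and the near-background probe sets sit at 0.

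Among the 6 brighter probe sets, 6 were lower in siGNE for all 3 numbers, and for 4 of all 11 the siGNE values lay entirely below the control values. Over the 22085 tested probe sets of the whole array, 29.1% were lower in all 3 numbers and 12% had groups parted in that direction. The members were selected on this contrast, so their counts are not read against these shares. By size, 15 of the 10862 tested genes had a more negative difference than GBP1, 109 than GBP3 and 113 than GBP2, and the median difference of all tested genes was -0.02. These ranks describe where the chosen genes lie.

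The 3 expressed members differed in their pattern over the arrays. GBP1 and GBP3 followed each other closely, with a root mean square difference of 0.28 between their log2 values after centring each gene on its mean over the 6 arrays. GBP2 differed from GBP1 by 0.66 and from GBP3 by 0.64 on the same measure. Array 1 was the highest control array for GBP1 and GBP3 and the lowest control array for GBP2. All 6 arrays enter this measure, so it holds the difference between the groups as well as that between numbers.

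The genes nearest to each member by this measure, with the members themselves left out, were different for each of the 3. Nearest to GBP1 were CEP128, a centriolar protein (0.15), PEAK1, a cytoskeleton-linked pseudokinase (0.19), and CCDC138 (0.22). Nearest to GBP2 were TMT1A (0.08), HLA-DMA, a chaperone of MHC class II peptide loading (0.13), and the phosphatase PXYLP1 (0.20). Nearest to GBP3 were the mitotic kinesin KIF18A (0.09), the transcription factor TFAP2A (0.10) and DTL, a substrate receptor of a ubiquitin ligase active in S phase (0.11). HLA-DMA read 3.51, 4.88 and 4.19 in siGNE arrays, against 4.33, 6.02 and 5.17 in control arrays, with array 2 highest in both groups as for GBP2. KIF18A read 7.62, 7.98 and 7.38 in siGNE arrays, against 9.15, 8.61 and 8.35 in control arrays, with array 1 highest among the controls as for GBP3. With 6 arrays many genes lie close, and no more is read from these names.

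**Figure D3:**
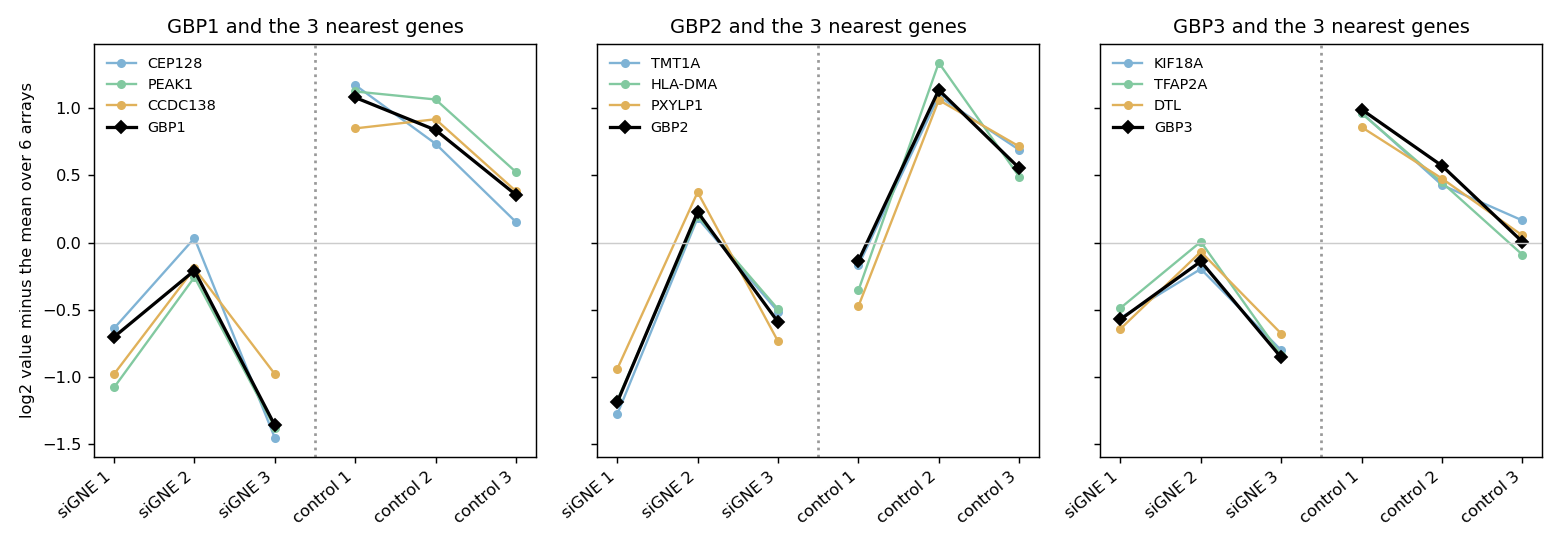
Log2 value minus the gene's mean over 6 arrays (vertical axis) for GBP1, GBP2 and GBP3 (black) and the 3 genes nearest to each, with siGNE arrays at the left and control arrays at the right of the dotted line. GBP1 and GBP3 are highest in control 1, while GBP2 and its nearest genes peak in array 2 of both groups.

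The GBP genes lie together on chromosome 1, in the RefSeq order GBP3, GBP1, GBP2, GBP7, GBP4, GBP5 and GBP6. The lower members GBP3, GBP1 and GBP2 are the first 3 in that order, next to one another. GBP6 read at background, 2.85, 2.81 and 2.77 in siGNE arrays, against 2.86, 2.81 and 2.74 in control arrays, and GBP7 was not analysed here. To see whether genes around the cluster moved with it, the 3 nearest tested protein-coding genes on each side were taken, a choice made after the GBP values were known. None of the 6 passed in limma without the block, where 0.0408% of all probe sets did.

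Directly before GBP3, RBMXL1, which encodes an RNA-binding protein, was lower on the siGNE arrays, with the caution that it is a retrocopy of RBMX, whose transcripts its probes may share. It read 6.85, 7.66 and 7.05 in siGNE arrays, against 8.17, 8.58 and 8.09 in control arrays, and the groups did not overlap. Its log2 difference was -1.09, close to those of GBP3 and GBP2, and it fell in limma with the replicate block (adjusted p 0.0242, and 0.143 without it), as 5.35% of all probe sets did. On the same side KYAT3, a kynurenine aminotransferase, rose by 0.45 in the blocked limma fit (adjusted p 0.0441, and 0.350 unblocked), as 4.13% of all probe sets did, and the general transcription factor GTF2B, at 0.37, passed in neither limma fit. Beyond GBP6 the volume-regulated channel subunits LRRC8B, LRRC8C and LRRC8D differed by -0.23, -0.51 and 0.29 and passed in neither limma fit (adjusted p with the block 0.276, 0.0503 and 0.289). So the genes flanking the cluster differed in both directions, and RBMXL1 alone of the 6 came near the size seen in GBP1, GBP2 and GBP3.

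**Figure D4:**
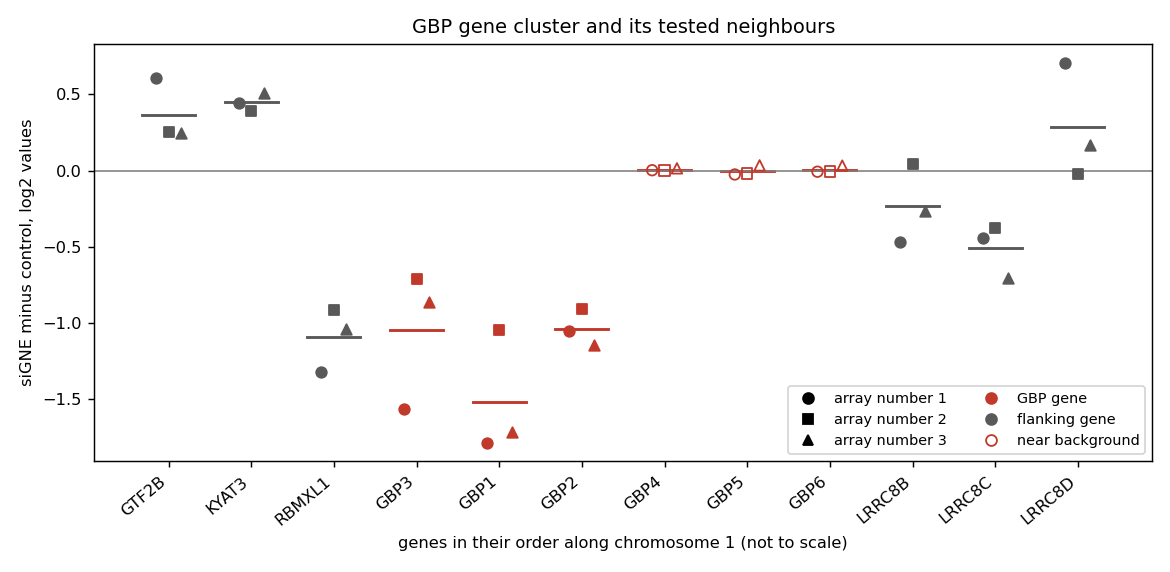
Difference of log2 values, siGNE minus control (vertical axis), by array number, for the GBP genes (red, open where near background) and the 3 nearest tested genes on each side (grey), placed by order along chromosome 1 and not to scale, with a bar at the mean. RBMXL1, GBP3, GBP1 and GBP2 stand next to each other between -1.04 and -1.52, while GTF2B, KYAT3 and LRRC8D lie above 0.

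Genes that act before and beside the guanylate-binding proteins were set against them with 9 lists covering interferon ligands, receptors and their targets, prenylation, known partners, NF-kB signalling and related GTPases. Of their 78 tested genes none was called in limma without the block in either direction, where 12 had an unadjusted p under 0.05, or 15.4%, against 16.2% of all tested genes. With the replicate block 6 rose and 4 fell, which is 7.69% and 5.13%, against 4.12% and 5.74% of all tested genes. With both arrays of number 1, 2 or 3 left out the blocked limma fit called 0 of these genes in either direction. It also called 0 of all 22085 probe sets. Every blocked call given here, those of GNE, RBMXL1 and KYAT3 included, was thus lost. Those fits have fewer arrays and passed no probe set at all, so the loss does not set these genes apart. In them 25, 21 and 20 of the list genes had an unadjusted p under 0.05, against 30 in the blocked limma fit with all arrays. The share of all tested genes under that p is not given for the blocked fits, so these counts do not tell whether the lists stand apart. The median difference over the 78 genes was 0.00, against -0.02 over all tested genes. The lowest of them, IFNAR2, lay at -0.98. GBP1, GBP2 and GBP3 were chosen on this contrast, so their larger differences are not read against those of the lists.

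No interferon ligand gene was above background, with 2.60 the highest value of any array over 8 genes, and IFNG, the main inducer of the GBP genes, was among them. Of the 15 tested genes for receptors, kinases and transcription factors, IFNAR2, a chain of the type I receptor, fell by 0.98 and IFNLR1, a chain of the type III receptor, by 0.89 with the replicate block, and the interferon-activated factor IRF9 rose by 0.71 (limma adjusted p 0.0237, 0.0381 and 0.0496). None of these passed without it (0.119, 0.273 and 0.137). The IFNAR2 probe sets disagreed in size. A brighter one, whose suffix marks probes that may bind other transcripts, differed by -0.16 and was not called (blocked limma adjusted p 0.261). The third differed by -0.73 and was called lower with the block alone (limma adjusted p 0.0438, and 0.213 without it). The mean over the 3 IFNAR2 probe sets differed by -0.62. The chains of the interferon gamma receptor, IFNGR1 at 0.24 and IFNGR2 at -0.20, and IRF1 at 0.10, the ISRE-binding factor, passed in neither limma fit, nor did JAK1 at 0.27 or JAK2 at 0.55. IRF1 read 7.93 on average in siGNE cells and 7.83 in control cells, so it was well above background in both, unlike GBP4 and GBP5. Among 7 tested inhibitors of interferon signalling, PTPN2 at 0.23, PTPN11 at -0.07, PIAS1 at -0.37 and CISH at -0.12 passed in neither fit of limma.

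Of 22 other genes that interferon gamma induces, 9 were at background, CXCL9, CXCL10, CXCL11, CIITA and IDO1 among them, as were GBP4 and GBP5. Of the 13 tested, WARS1, the tryptophanyl-tRNA synthetase, rose by 1.11 and CD274, which encodes the checkpoint ligand PD-L1, by 0.76 in the blocked limma fit (adjusted p 0.0200 and 0.0281, and unblocked 0.0906 and 0.587), and 0 fell. Averaged with its other probe set, which had a mean under 4, CD274 differed by 0.38. The peptide transporter TAP1 at 0.36 did not pass. The list median was -0.02, which to 2 decimals is also that of all tested genes.

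Of 14 tested genes induced chiefly by type I interferon, OAS1, ISG15 and IFIH1 rose and OAS3 and IFIT5 fell with the block in limma, by 0.69, 0.50, 0.69, -0.94 and -0.53 (adjusted p 0.0431, 0.0408, 0.0281, 0.0281 and 0.0371). None passed without it, and IFI35 at -0.54 passed in neither fit. Averaged with its other probe set, near background, OAS3 differed by -0.48. A second OAS1 probe set, above background, differed by 0.47 and was not called (blocked limma adjusted p 0.0584). IFNLR1, ISG15, IFIH1 and IFIT5 were named after their values were seen.

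The related GTPases above background, MX1 at 0.18, ATL1 at 0.42 and ATL3 at 0.26 among 5 tested, were on the higher side and passed in neither limma fit, with MX2 at -0.20 on the other. A second ATL3 probe set differed by -0.19, and the mean over all 3 of its probe sets by 0.09, so ATL3 has no settled direction. Enzymes that attach or process the prenyl anchor of GBP1, GBP2 and GBP5 did not pass either, among them FNTA at 0.00, PGGT1B at 0.17, ICMT at -0.32 and ZMPSTE24 at 0.19 of 5 tested. Nor did the partners CASP4 (0.48), a caspase that GBP1 helps recruit, its target GSDMD (-0.60), the kinase PIM1 (0.51), which phosphorylates GBP1, FURIN (-0.09), the protease that GBP2 and GBP5 restrain, or RNF213 (0.09), out of 7 tested. Of 12 tested genes of NF-kB, IL-1 and TNF signalling, which can induce GBP1 without interferon, NFKBIA (-0.43), TNFAIP3 (-0.46), NFKB1 (-0.23) and RELA (0.13) passed in neither fit of limma. A p that misses the threshold does not show that these genes were unchanged.

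**Figure D5:**
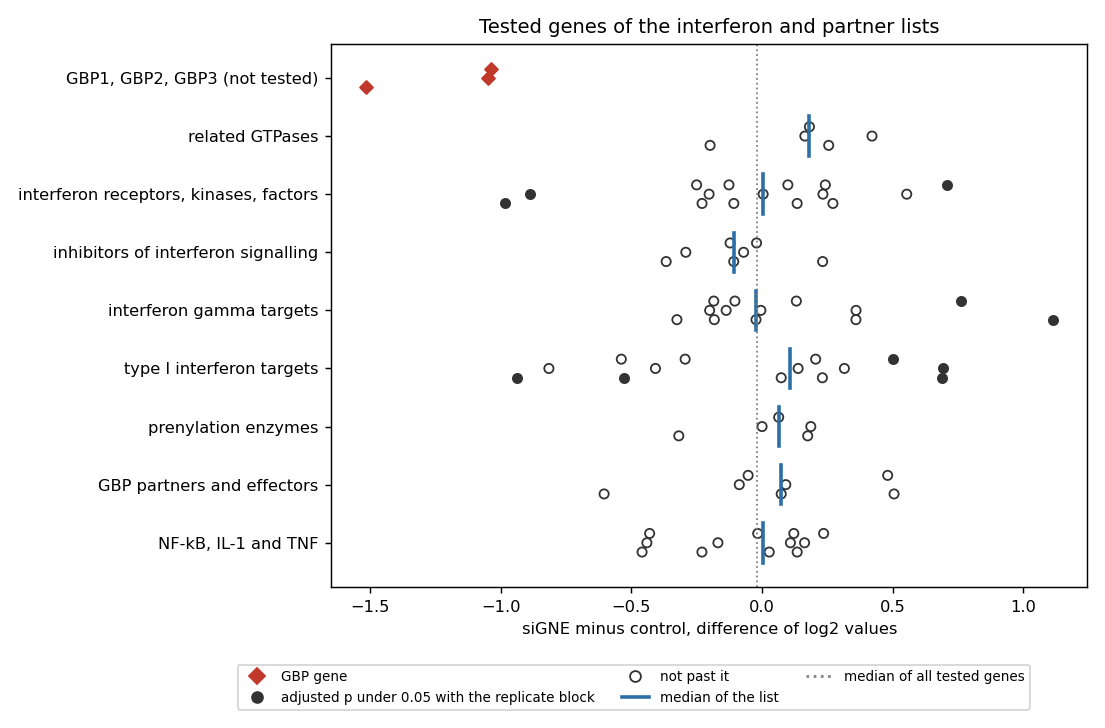
Difference of log2 values, siGNE minus control (horizontal axis), for GBP1, GBP2 and GBP3 (red diamonds, not tested) and for each tested gene of 8 lists (circles, filled where the limma adjusted p with the replicate block was under 0.05), with a blue bar at each list median and a dotted line at the median of all tested genes. The list medians lie between -0.11 and 0.18. The 3 GBP genes, which were chosen on this contrast, lie to the left of every circle.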

How the data were processed

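Total RNA of Capan-1 cells was measured on 3 siGNE and 3 control arrays, with biotinylated cRNA made from 300 ng of RNA per the labels' protocols. The authors deposited log2 values of 54675 probe sets, made with GCRMA per the submitters' processing notes, whose version and chip definition are not stated. GCRMA models background from probe sequence, so low values are compressed. Arrays have no read depth, and 3 arrays a group limit the precision.

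Names came from the platform's annotation, and symbols were updated by gene identifier (41043 of 41097 with 1 symbol). The 1801 with several genes and 11777 with none named no gene. Per gene the brightest probe set was used, one with an _x_ suffix only where no other existed. The members and all lists were chosen with earlier results of these data known. siGNE minus control was fitted with limma 3.58.1 (R 4.3.3) over the 22085 probe sets with a mean above 4, with Benjamini-Hochberg adjustment and a call at an adjusted p under 0.05. The fit was tested on simulated data. Same-number arrays deviated together (correlations 0.58, 0.71 and 0.83, with -0.64 to 0.17 between different numbers), so the number was used as a replicate block beside the main fit. Genes named were the members, GNE, a set chosen for its role, per list the 3 genes of lowest unadjusted p, and the 3 nearest to each expressed member, and others are identified in the text. Sequences and gene order come from RefSeq, GRCh38.p14, and protein sequences were not used here. Alternatives covered normalization, floors, filters, variance, weights, probe set choice and left-out arrays.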

Additional observations from a re-analysis of the deposited data

How the results depend on the processing

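The differences of GBP1 (-1.52), GBP2 (-1.04) and GBP3 (-1.05) kept their sign and moved by less than the spread between arrays under quantile normalization, median centring, floors at 4 and 3, the median over array numbers and each left-out array or pair. With arrays left out they ran from -1.79 to -1.21, from -1.41 to -0.70 and from -1.31 to -0.79. With arrays left out the second GBP2 probe set ran from -0.98 to 0.14, and from -0.55 to -0.37 where both arrays of a number were left out. It was -0.22 with a floor at 4. Among the pathway lists 0 genes were called in limma without the block. With the replicate block 6 were called higher and 4 lower, with array weights 2 and 1, with probe sets averaged per gene 1 higher, and at an adjusted p under 0.1 again 1 higher. With the replicate block and both arrays of number 1, 2 or 3 left out, 0 were called in either direction, as were 0 of all probe sets, in fits that have fewer arrays. The cause of the other changes was not tested. GNE, at -1.88, passed with the replicate block (limma adjusted p 0.0348), but not when a number was left out of the blocked fit (0.0665, 0.127 and 0.144). Averaging all probe sets of a gene moved IFNAR2 to -0.62, CD274 to 0.38, OAS3 to -0.48, JAK2 to 0.34, IFNGR1 to 0.15, PTPN2 to 0.09, PTPN11 to -0.0003, NFKBIA to -0.22, RELA to 0.06, ICMT to -0.21, FNTA to 0.03 and ATL3 to 0.09, each by over 1.5 times. With single arrays left out, IRF1 ran from -0.25 to 0.38, IFNGR2 from -0.37 to 0.003 and RNF213 from -0.26 to 0.35. FURIN ran from -0.31 to 0.20, PGGT1B from -0.080 to 0.48 and FNTA from -0.072 to 0.068. Leaving out 1 array of a number also brings in the difference between numbers. With both arrays of a number left out, IRF1 ran from 0.03 to 0.16 and IFNGR2 from -0.32 to -0.10. RNF213 then ran from 0.002 to 0.17, FURIN from -0.18 to -0.02 and PGGT1B from 0.05 to 0.25. Within single numbers IRF1, IFNGR2, RNF213, FURIN and FNTA differed in sign, so these have no settled direction. FNTA was also -0.0084 under median centring and -0.037 and -0.038 with the replicate block and both arrays of number 1 or 2 left out. GBP4, GBP5 and the fourth GBP1 probe set are limited by a signal at background.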

Other observations

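Genes that hold the promoter letters found in GBP1, GBP3 and GBP4 were counted after those matches were seen. Of the tested genes with a promoter window, leaving out the members, 236 held the ISRE core, and 11 of them rose and 18 fell in limma with the replicate block, or 4.66% and 7.63%. Over all 8967 tested genes with a window the shares were 3.97% and 5.86%. The median difference was -0.03 for genes with the ISRE core and -0.02 for all. GBP1 and GBP3 were chosen on this contrast, so their differences are not set against these medians. For the GAS core, found in GBP3, 553 tested genes had a median of -0.03, with 5.06% higher and 5.97% lower. GBP1P1, the pseudogene related to GBP1, read 3.09, 3.07 and 3.04 in siGNE arrays, against 3.09, 3.07 and 3.03 in control arrays, at background like GBP6.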
